A study of Homo sapiens with 6 samples.

Results

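Cytokine receptor chains are the surface proteins through which a T cell reads interleukins and interferons. The genes described here are 10 such chains, fixed by name (IL7R, IL2RA, IL2RB, IL2RG, IL4R, IL21R, IL10RA, IL6ST, IFNGR1 and IFNAR1) and found by their Ensembl identifiers among the 58096 genes of the count files. They were read in ALL-SIL, an established human T-cell acute lymphoblastic leukaemia line, in 3 libraries of cells given 1 µM JQ1 for 24 h and 3 libraries of DMSO controls. JQ1 binds the bromodomains of BET proteins and so takes them off acetylated chromatin, and DMSO is its solvent. Both groups share the lesions of the line, rearranged TLX1 and the fusion kinase NUP214-ABL1, and a single line stands for the disease in all 6 libraries. The protocol text of the controls repeats the JQ1 treatment, so the groups come from the sample titles. The titles do not say whether replicates were separate cultures, so each p-value speaks only to how far these 6 libraries vary, and that variation may be technical.

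A receptor of this kind has no enzyme of its own: chains come together around a cytokine, the JAK kinases bound to their tails phosphorylate each other, and STAT factors dock and move to the nucleus. IL2RG encodes the common gamma chain, which pairs with IL7R in the interleukin-7 receptor, with IL2RB and IL2RA in the interleukin-2 receptor, with IL2RB and IL15RA in the interleukin-15 receptor, with IL4R and with IL21R. IL10RA, IFNGR1 and IFNAR1 belong to the class II family, and each works with a partner chain, IL10RB, IFNGR2 and IFNAR2. IL6ST encodes gp130, the shared signalling chain of the interleukin-6 family. In thymocytes the interleukin-7 receptor supports survival and proliferation, and it is a known oncogenic pathway in T-cell leukaemia.

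The sequences upstream of 5 chains that passed the test are shown because they fell or rose under JQ1. The printed stretches differ in length: 161 bases for IL7R, 196 for IL2RG, 95 for IL4R, 250 for IL10RA and 186 for IFNGR1. They also end at different distances from the start, so marked matches cannot be compared directly between them. They come from RefSeq on GRCh38.p14, which held 9 of the 10 genes (IL2RB had no entry). From the 250 bases before each RefSeq start, the longest stretch outside every GENCODE 29 exon of the gene is printed, 5′ to 3′ on the strand of the gene. Where a member had several RefSeq starts, the window overlapping the fewest exon bases of the gene was used. The stretches are chr5:35856688-35856848 (plus strand), chrX:71111632-71111827 (minus), chr16:27313818-27313912 (plus), chr11:117989695-117989944 (plus) and chr6:137219450-137219635 (minus). The stretches of IL7R, IL2RG, IL4R and IL10RA lie inside the GENCODE 29 span of their gene and outside its exons, so they are intronic to a longer transcript and precede only the RefSeq start used here. Capitals mark a match to a searched motif that lies wholly within the printed stretch, on either strand.
IL7R: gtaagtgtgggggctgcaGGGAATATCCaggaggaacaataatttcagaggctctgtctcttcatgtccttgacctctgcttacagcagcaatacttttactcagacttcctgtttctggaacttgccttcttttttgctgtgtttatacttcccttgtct
IL2RG: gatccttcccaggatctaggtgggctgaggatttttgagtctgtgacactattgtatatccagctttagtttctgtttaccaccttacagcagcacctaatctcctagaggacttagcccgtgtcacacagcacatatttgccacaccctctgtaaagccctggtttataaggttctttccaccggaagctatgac
IL4R: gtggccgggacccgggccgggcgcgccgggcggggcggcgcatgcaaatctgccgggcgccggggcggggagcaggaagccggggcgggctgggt
IL10RA: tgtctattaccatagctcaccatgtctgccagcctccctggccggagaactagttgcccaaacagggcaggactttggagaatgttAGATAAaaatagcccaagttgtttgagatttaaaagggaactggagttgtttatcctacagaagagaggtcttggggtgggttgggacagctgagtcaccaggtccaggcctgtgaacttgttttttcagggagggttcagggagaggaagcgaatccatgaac
IFNGR1: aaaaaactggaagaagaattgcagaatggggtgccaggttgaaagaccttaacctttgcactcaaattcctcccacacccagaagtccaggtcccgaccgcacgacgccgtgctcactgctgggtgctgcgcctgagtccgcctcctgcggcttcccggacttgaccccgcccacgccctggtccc

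Among IL7R, IL2RG and IL4R, which fell, only the IL7R stretch holds a marked match, GGGAATATCC, to the NF-kB motif. The same motif was found in the 250-base windows of 4 of the 9 members (IL7R, IL2RA, IL4R and IL6ST) and in 22.6% of all 35116 windows. IL2RA held 2 overlapping matches to it. The GATA motif AGATAA, marked in IL10RA, was in 3 members (IL7R, IL10RA and IFNAR1) against 9.17% of windows. The RUNX motif TGTGGT was in IL7R and IL21R (11% of windows). The ETS motif CGGAAGT was in IFNGR1 alone among the 9 (5.69%). The RUNX and GATA matches of IL7R, the NF-kB match of IL4R and the ETS match of IFNGR1 lie nearer the start than the printed stretches end, or run past that end. No member window held the STAT motif TTCNNNGAA (6.57% of windows), the E-box CACGTG (6.34%) or the interferon response element (3.02%). Both strands were read. The member counts use a single window per gene, chosen for little exon overlap, and the percentages use every window. The percentages are therefore not a matched background. A match describes letters only, and binding was not measured.

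Depth ran from 15925885 to 25293884 reads in genes per library. MYC, which BET inhibition lowers in this leukaemia, had 120 to 149 CPM (gene reads scaled to a common, TMM-normalised library size) in JQ1 and 345 to 368 in DMSO, and HEXIM1, which it raises, had 71.2 to 109 and 22.2 to 36.4. None of the 16 T-lineage markers was at 0, and their summed level was 1970 to 2200 CPM in DMSO and 1100 to 1420 in JQ1. Markers of other cells were mostly near 0: 5 of 9 myeloid markers (MPO, ELANE, FCGR3A, S100A8 and S100A9) and 4 of 5 erythroid markers had no read, and their sums reached at most 0.471 and 0.0393 CPM. Of 6 B-cell markers MS4A1 was at 0, with sums of 11.5 to 24.5 CPM in DMSO and 1.61 to 6.34 in JQ1 that came mainly from CD79A and CD79B. Of 7 NK-cell markers NCAM1, KLRF1 and NCR1 were at 0, with sums of 132 to 223 CPM in DMSO and 41.9 to 134 in JQ1 that came from NKG7. Of 8 stromal, endothelial and epithelial markers COL1A2, COL3A1 and VWF were at 0, with sums of 65.5 to 91.7 CPM in DMSO and 4.71 to 10 in JQ1 that came from PECAM1. The part of the T-lineage, B-cell, NK-cell and stromal sums in the results below was not tested.

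The comparison of JQ1 with DMSO asked which receptor chains change when BET proteins are displaced. Of the 10 chains 8 had enough reads to be tested, IL2RA and IL6ST being the exceptions. IL7R, IL2RB, IL2RG and IL4R fell and IL10RA and IFNGR1 rose, while IL21R and IFNAR1 did not pass the test (edgeR quasi-likelihood test, Benjamini-Hochberg adjusted p under 0.05). So 4 of 8 were lower and 2 of 8 higher, where over all 13975 tested genes 20.6% were lower, 15.9% higher and 36.6% either. With replicate number as a block the member counts were the same, 4 and 2, where 29.6% of tested genes were lower and 27.3% higher. The groups did not overlap for these 6 chains, against 48.9% of tested genes. The median log2 change of the 8 was -0.42, beside 0.00 over all tested genes. The members were chosen with results of these data known, so these shares are a description. Fewer cells that carry a chain and less RNA of it per cell cannot be told apart in bulk RNA.

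**Figure D1:**
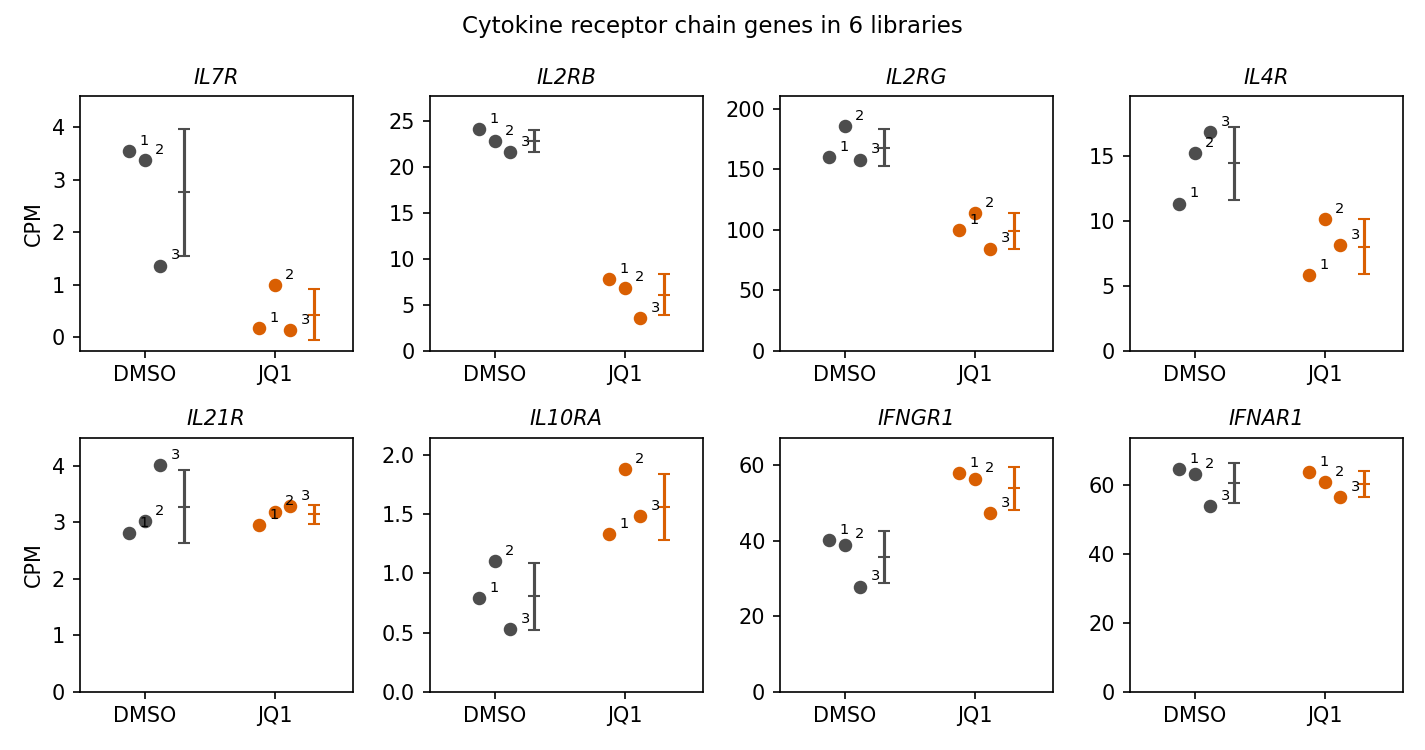
Level of the 8 tested chains in CPM (vertical axis, linear, scaled for each gene) in the 3 DMSO (grey) and 3 JQ1 (orange) libraries. Points are libraries labelled by replicate number, and the bar beside them is the mean ± SD; IL7R, IL2RB, IL2RG and IL4R lie lower in every JQ1 library, IL10RA and IFNGR1 higher, and IL21R and IFNAR1 overlap.

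IL2RG (ENSG00000147168.12, chromosome X, 71107404 to 71112108, minus strand, protein-coding) is the chain the others of its family depend on. It had 160, 186 and 158 CPM in DMSO replicates 1, 2 and 3, and 99.5, 114 and 84.3 CPM in JQ1 replicates 1, 2 and 3. All JQ1 libraries were below all DMSO libraries. The mean went from 168 ± 15.4 (SD, n = 3) to 99.2 ± 14.8 CPM, which is 1.69-fold lower (log2 change -0.76 ± 0.12 SE, edgeR adjusted p = 0.000801).

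IL2RB (ENSG00000100385.13, chromosome 22, 37125838 to 37175054, minus strand) encodes the beta chain that carries interleukin-2 and interleukin-15 signals. Its levels were 24.1, 22.8 and 21.6 CPM in DMSO replicates 1, 2 and 3, and 7.80, 6.85 and 3.55 CPM in JQ1. The DMSO libraries lay close together and JQ1 replicate 3 was the lowest. The mean of IL2RB fell 3.69-fold, 22.8 ± 1.24 CPM against 6.07 ± 2.23 (log2 change -1.88 ± 0.23, edgeR adjusted p = 0.000242).

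IL7R (ENSG00000168685.14, chromosome 5, 35852695 to 35879603, plus strand) encodes the alpha chain of the interleukin-7 receptor and was rare in these cells. It had 72, 86 and 36 reads in DMSO replicates 1, 2 and 3 and 4, 21 and 2 reads in JQ1 replicates 1, 2 and 3, or 3.55, 3.38 and 1.36 against 0.162, 0.986 and 0.129 CPM. DMSO replicate 3 and JQ1 replicate 2 came nearest to each other without overlapping. The change was the largest of the members by its point estimate and also the least certain, with a log2 change of -2.64 ± 0.65 (edgeR adjusted p = 0.0131) and a 95% interval from -4.11 to -1.16. Without JQ1 replicate 2, which held most of the JQ1 reads, it was -4.16 (edgeR adjusted p = 0.000875). Without DMSO replicate 3 it was -2.96 (edgeR adjusted p = 0.00625). Leaving out JQ1 replicate 1 or 3, or DMSO replicate 1 or 2, gave -2.45 to -2.17. These fits came nearer the threshold (edgeR adjusted p from 0.036 to 0.0459).

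IL4R (ENSG00000077238.13, chromosome 16, 27313668 to 27364778, plus strand) encodes the chain that binds interleukin-4. It had 11.3, 15.2 and 16.8 CPM in DMSO replicates 1, 2 and 3, against 5.82, 10.1 and 8.12 CPM in JQ1. The groups came close, with 10.1 CPM in JQ1 replicate 2 under 11.3 in DMSO replicate 1. The mean of IL4R fell 1.81-fold, 14.4 ± 2.80 CPM against 8.01 ± 2.14 (log2 change -0.86 ± 0.21, edgeR adjusted p = 0.0106).

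IL21R (ENSG00000103522.15, chromosome 16, 27402162 to 27452042, plus strand), the interleukin-21 receptor chain, lies 37.4 kb from IL4R in the direction of transcription of both, with no other protein-coding gene between them. Its levels were 2.81, 3.02 and 4.02 CPM in DMSO and 2.95, 3.19 and 3.29 CPM in JQ1, so the groups overlapped. The log2 change was -0.07 ± 0.21 (edgeR adjusted p = 0.822), with a 95% interval from -0.54 to 0.39, and it was 0.11 without DMSO replicate 3. Whether IL21R and IL4R differ in their change was not tested. The ratios given below set each of them against IL2RG only. IL21R-AS1, on the opposite strand at the end of IL21R, had 0, 2 and 4 reads in JQ1 and 0, 1 and 1 in DMSO, so few of the reads near IL21R came from it.

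IL2RA, the high-affinity alpha chain of the interleukin-2 receptor and a marker of activated T cells, had 1, 0 and 2 reads in JQ1 replicates 1, 2 and 3, against 0, 1 and 3 in DMSO. At that depth, no difference was detectable. Its neighbour IL15RA, 32.5 kb away on the same strand in GENCODE 29, encodes the alpha chain for interleukin-15. IL15RA had 1.82, 1.49 and 2.16 CPM in DMSO and 0.162, 0.282 and 0.129 CPM in JQ1, with no overlap. On 132 reads in DMSO and 12 in JQ1, IL15RA fell 9.16-fold (log2 change -3.19 ± 0.37, edgeR adjusted p = 0.000162). All 3 chains of the interleukin-15 receptor, IL15RA, IL2RB and IL2RG, were therefore lower in JQ1, by different sizes. IL15 itself had 2.57 ± 0.826 CPM in DMSO and 1.89 ± 0.777 in JQ1 (log2 change -0.46 ± 0.34, edgeR adjusted p = 0.324).

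**Figure D2:**
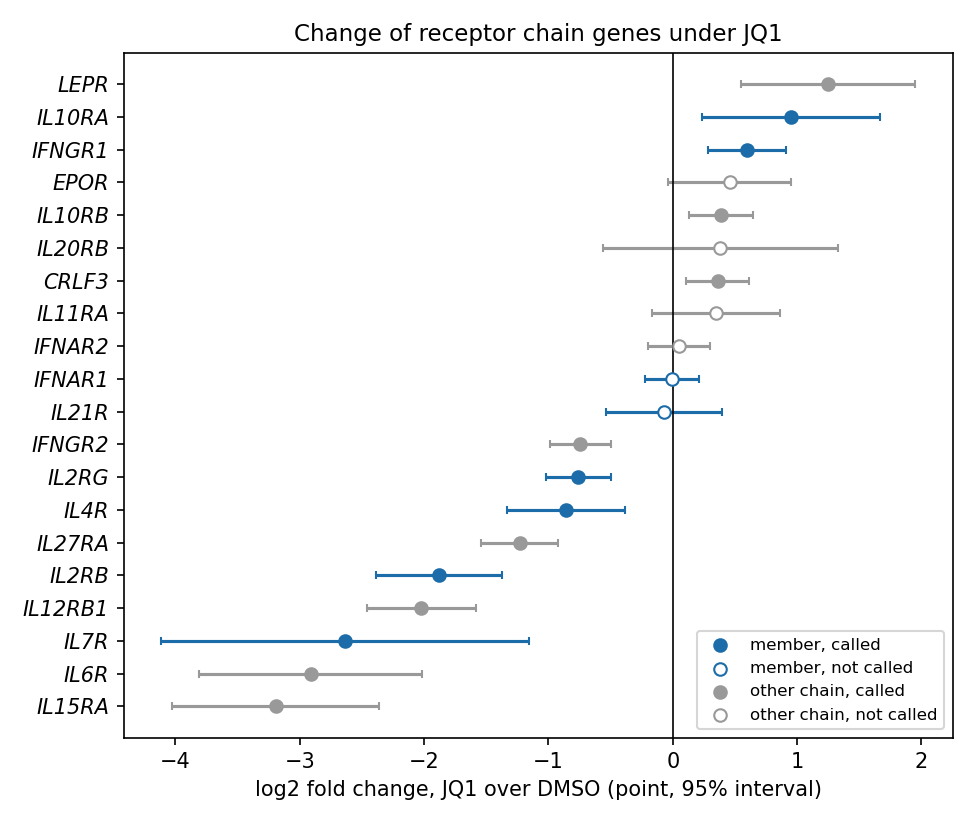
Log2 fold change of JQ1 over DMSO (horizontal axis, point with 95% interval) for the 8 tested members (blue) and 12 other tested type I and type II receptor chains (grey), ordered by size. Filled points passed an adjusted p of 0.05; IL15RA, IL6R and IL7R lie farthest to the left at -3.19, -2.91 and -2.64, and LEPR farthest to the right at 1.25.

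Ratios within a library show how each partner stood relative to the common gamma chain, and do not depend on how libraries are scaled. The log2 ratio of IL2RB to IL2RG counts was -2.73, -3.03 and -2.87 in DMSO and -3.67, -4.05 and -4.56 in JQ1, a difference of -1.22. For IL7R to IL2RG it was -5.49, -5.77 and -6.84 in DMSO and -9.10, -6.82 and -9.03 in JQ1, a difference of -2.28, and JQ1 replicate 2 was just above DMSO replicate 3. The ratio of IL21R to IL2RG moved the other way, from -5.82, -5.93 and -5.29 to -5.07, -5.15 and -4.67, a difference of 0.72 with no overlap. IL21R itself did not rise: its log2 change was -0.07, while that of IL2RG was -0.76. IL4R fell about as much as IL2RG did: its log2 ratio had a mean of -3.56 ± 0.30 (SD, n = 3) in DMSO and -3.65 ± 0.39 in JQ1. With 3 libraries against 3 a 2-sided exact permutation test cannot give less than 0.1. It gave 0.1 for IL2RB and IL21R, 0.2 for IL7R and 0.7 for IL4R (0.2, 0.2, 0.267 and 0.7 adjusted over these 4 ratios), so none can pass. The IL4R difference, -0.09, was 0.12 without JQ1 replicate 1 and 0.07 without DMSO replicate 3.

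**Figure D3:**
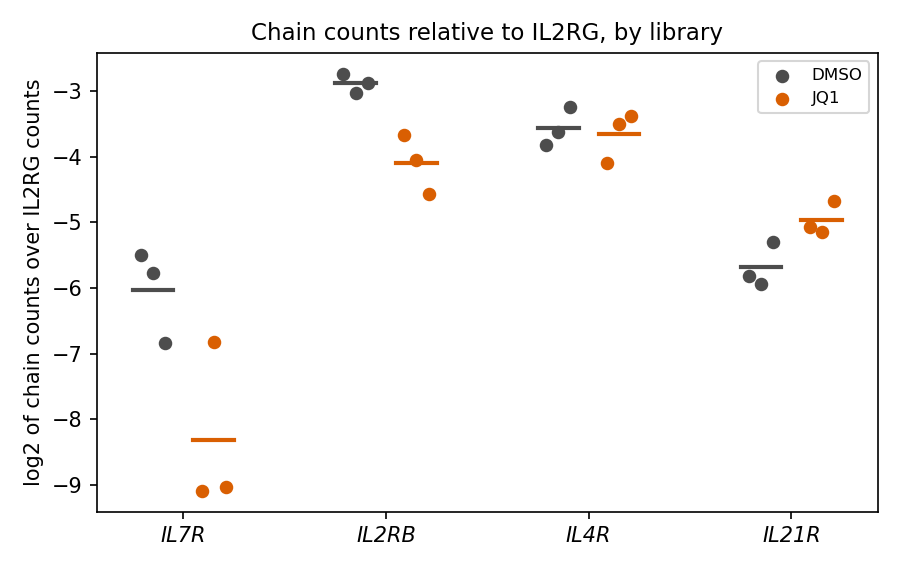
Log2 ratio of the counts of 4 chains to those of IL2RG (vertical axis) in each DMSO (grey) and JQ1 (orange) library, with the group mean as a bar. IL2RB is lower and IL21R higher relative to IL2RG in every JQ1 library, while the groups overlap for IL4R and for IL7R, where JQ1 replicate 2 stands apart from the other two.

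Of the class II chains and their partners, IFNGR1 and IFNGR2 changed in opposite directions, IL10RA and IL10RB both rose, and neither IFNAR1 nor IFNAR2 passed the test. IFNGR1 (ENSG00000027697.13), the ligand-binding chain for interferon-gamma, had 40.2, 39.0 and 27.9 CPM in DMSO replicates 1, 2 and 3, against 57.9, 56.5 and 47.4 CPM in JQ1. Every JQ1 library was above every DMSO library, and replicate 3 was the lowest in both groups. IFNGR1 rose from 35.7 ± 6.79 to 53.9 ± 5.71 CPM, 1.51-fold (log2 change 0.60 ± 0.14, edgeR adjusted p = 0.00831).

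IFNGR2, the partner that brings JAK2 to the interferon-gamma receptor, went the other way, with 39.8, 34.6 and 31.6 CPM in DMSO and 20.6, 21.0 and 21.7 in JQ1. IFNGR2 fell 1.67-fold (log2 change -0.74 ± 0.11, edgeR adjusted p = 0.000594). For neither gene did the JQ1 and DMSO libraries overlap. IFNG had no read in any library, which allows up to 3 reads in each (0.114 to 0.193 CPM, counting error only).

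IL10RA (ENSG00000110324.10, chromosome 11, 117986348 to 118003037, plus strand), the binding chain for interleukin-10, was rare. It had 16, 28 and 14 reads in DMSO replicates 1, 2 and 3, against 33, 40 and 23 in JQ1, or 0.788, 1.1 and 0.530 against 1.33, 1.88 and 1.48 CPM. The groups did not overlap. IL10RA rose 1.94-fold (log2 change 0.95 ± 0.32, edgeR adjusted p = 0.0411), a call near the threshold. It was lost with DESeq2 (adjusted p = 0.0596), when only library size was used for scaling (edgeR adjusted p = 0.0511) and without JQ1 replicate 1, 2 or 3 or DMSO replicate 1 or 3 (log2 change 0.71 to 1.07, edgeR adjusted p from 0.0544 to 0.136).

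Its partner IL10RB, which also serves other interleukins and interferon-lambda, had 14.3, 15.8 and 13.9 CPM in DMSO and 18.8, 20.5 and 18.0 in JQ1. IL10RB rose 1.31-fold (log2 change 0.39 ± 0.12, edgeR adjusted p = 0.0240), and the call did not hold when JQ1 replicate 1 or 2, or DMSO replicate 1 or 3, was dropped (log2 change 0.33 to 0.40, edgeR adjusted p from 0.0545 to 0.0824). IL10 had 2 reads in JQ1 and 7 in DMSO over all libraries.

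IFNAR1 (ENSG00000142166.12, chromosome 21, 33324477 to 33359862, plus strand), a chain of the type I interferon receptor, had 64.5, 63.1 and 53.8 CPM in DMSO and 63.6, 60.7 and 56.3 CPM in JQ1. The log2 change was -0.0045 ± 0.10 (edgeR adjusted p = 0.977), with a 95% interval from -0.22 to 0.21. Its partner IFNAR2 had 31.3 ± 3.31 CPM in DMSO and 32.4 ± 2.96 in JQ1 (log2 change 0.05 ± 0.11, edgeR adjusted p = 0.768). The direction of both small changes turned with the scaling: IFNAR1 was at 0.0061 under relative log expression factors, and IFNAR2 turned with library size as the only scaling. IFNAR1 has IL10RB 14.3 kb to one side and IFNGR2 43.0 kb to the other as its nearest protein-coding genes on chromosome 21. Within this stretch one gene rose, one fell and IFNAR1 did not pass the test.

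IL6ST (ENSG00000134352.19, chromosome 5, 55935095 to 55994993, minus strand) was listed at 0 on either strand in all 6 libraries. Whether the gene was not expressed or its reads were not assigned to it could not be settled from the count files, so its 0 is given as listed. LIFR and OSMR, which pair with gp130, had no read on the counted strand, while IL6R, IL11RA and IL27RA were counted. LIFR was at 0 on the opposite strand too, but OSMR had from 136 to 193 opposite-strand reads per library. The source of these OSMR reads was not tested. IL6R, the binding chain for interleukin-6, had 7.19, 9.78 and 18.2 CPM in DMSO replicates 1, 2 and 3, against 1.33, 1.22 and 2.26 in JQ1. DMSO replicate 3 was the highest, and no JQ1 library reached the DMSO levels. IL6R fell 7.53-fold (log2 change -2.91 ± 0.39, edgeR adjusted p = 0.000696). IL11RA averaged 6.49 ± 1.69 CPM with JQ1 and 5.16 ± 1.21 with DMSO (edgeR adjusted p = 0.27).

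Levels of different genes were compared per kb of exon, taken from GENCODE 29, whose gene version differs from that of the files for IL2RA and IFNGR1. In DMSO, IL2RG stood highest at 60.9 ± 5.58 CPM per kb. IFNGR1 (10.9 ± 2.07) and IFNAR1 (9.60 ± 0.917) followed and overlapped each other, then came IL2RB (4.86 ± 0.265) and IL4R (2.45 ± 0.475) with no overlap between them. IL21R (0.600 ± 0.118) and IL7R (0.456 ± 0.200) overlapped, above IL10RA (0.0995 ± 0.0352) and IL2RA (0.0129 ± 0.0146). The median tested gene had 5.02 CPM per kb.

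In JQ1 the order of the abundant chains was the same and that of the rarer ones was not. IL2RG had 35.9 ± 5.35 CPM per kb, IFNGR1 16.5 ± 1.74 and IFNAR1 9.56 ± 0.578, and none of these 3 overlapped another. IL4R (1.36 ± 0.363) and IL2RB (1.29 ± 0.475) overlapped, so the gap between them in DMSO was gone. IL21R (0.575 ± 0.0318) and IL10RA (0.193 ± 0.0347) came next, both above IL7R (0.0702 ± 0.0801), whose highest library reached 0.163 where the lowest of IL10RA had 0.165. IL2RA, at 0.0142, overlapped IL7R. In the ranking, IL7R thus stood above IL10RA in DMSO and below it in JQ1.

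**Figure D4:**
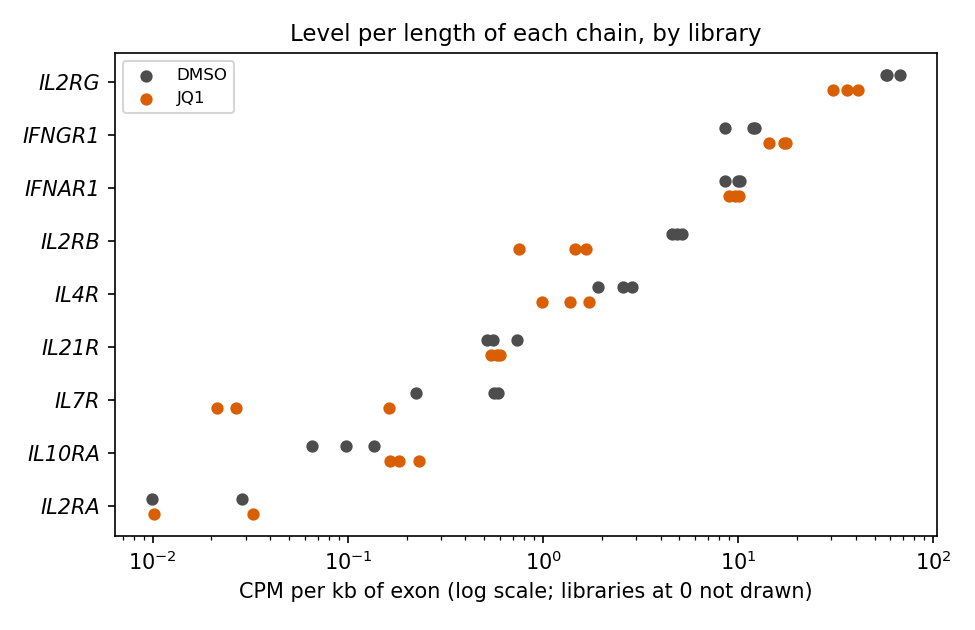
Level of 9 chains in CPM per kb of exon (horizontal axis, log scale) in each DMSO (grey) and JQ1 (orange) library, ordered by the DMSO mean; libraries at 0 and IL6ST, at 0 in all, are not drawn. IL2RG is highest in both groups, the IL2RB points move left onto those of IL4R in JQ1, and the IL7R points fall to or below the level of IL10RA.

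Other type I chains split in the same 2 directions. Of 23 listed, 8 were tested, of which 4 fell and 2 rose, with a median log2 change of -0.44 (4 and 3 with the block). The shares were 50% lower and 25% higher, beside 20.6% and 15.9% of all tested genes (29.6% and 27.3% with the block). IL12RB1, a chain shared by the receptors for interleukin-12 and interleukin-23, averaged 20.0 ± 2.11 CPM in DMSO and 4.86 ± 1.41 in JQ1 (log2 change -2.02 ± 0.20, edgeR adjusted p = 6.1e-05). IL27RA, the interleukin-27 receptor chain that pairs with gp130, fell from 39.0 ± 2.90 to 16.5 ± 3.13 CPM. IL15RA and IL6R, described above, were the other 2 that fell. The 2 that rose, chosen for mention after their values were seen, were the leptin receptor LEPR (log2 change 1.25 ± 0.32) and CRLF3 (0.36 ± 0.11, edgeR adjusted p = 0.0301). LEPR was rare, with 24, 22 and 15 reads in JQ1 against 7, 10 and 13 in DMSO (edgeR adjusted p = 0.011). Dropping JQ1 replicate 1 or 2, or DMSO replicate 1 or 3, ended the CRLF3 call (log2 change 0.26 to 0.39, edgeR adjusted p from 0.0572 to 0.0836). Of 8 other type II chains 4 were tested, with IL10RB higher and IFNGR2 lower, 25% in each direction.

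Receptors of other families included further genes that fell. Of 15 chains for interleukin-1, interleukin-18, interleukin-17 and TGF-beta, 5 were tested, 2 fell and 0 rose. The 2 that fell are 40% of those tested, where 20.6% of all tested genes fell and 15.9% rose. TGFBR2 fell from 29.6 ± 1.07 to 18.3 ± 2.70 CPM and IL17RA, which serves the interleukin-17 receptors, from 49.5 ± 1.77 to 30.8 ± 5.75 CPM. TGFBR1, the partner of TGFBR2, had a log2 change of -0.05 ± 0.12.

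Most listed ligands of these receptors were not counted. Of 30 listed, 20 had no read in any library, among them IL2, IL4, IL7, IL9, IL13, IL21 and IL6, and 7 were tested. Of those, 4 fell and 0 rose, OSM, CLCF1 and LIF of the interleukin-6 family and IL23A, with a median log2 change of -1.51 (5 fell and 0 rose with the block). The ligands that fell are 57.1% of the 7, where 20.6% of all tested genes fell and 15.9% rose (29.6% and 27.3% with the block). OSM went from 44.5, 53.8 and 37.8 CPM in DMSO to 8.24, 11.9 and 6.32 in JQ1 and CLCF1 from 6.84 ± 1.17 to 1.1 ± 0.404 CPM. LIF had 130 reads in DMSO and 3 in JQ1, a ratio of 0.0270 with an exact 95% interval from 0.00551 to 0.0808 that covers counting error only (edgeR adjusted p = 0.000698). IL23A, a subunit of interleukin-23, changed by -1.51 ± 0.35 on the log2 scale (edgeR adjusted p = 0.00716).

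Downstream of the receptors are the JAK kinases and STAT factors. Of 11 JAK and STAT genes, all tested, 3 rose and 2 fell, with a median log2 change of 0.16 (6 and 4 with replicate number as a block). These are 27.3% higher and 18.2% lower, beside 15.9% and 20.6% of all tested genes. With the block, 27.3% of all tested genes were higher and 29.6% lower. JAK1, which binds IL2RB, IL7R, IL4R, IFNGR1 and IL10RA, rose from 122 ± 13.8 to 188 ± 23.1 CPM. STAT2 rose from 61.5 ± 6.08 to 98.0 ± 13.1 CPM, and STAT3 from 148 ± 15 to 215 ± 29.5 CPM. STAT5A, which interleukin-2 and interleukin-7 activate, fell, with 53.3 ± 9.32 CPM in DMSO against 20.7 ± 5.77 in JQ1 (log2 change -1.36 ± 0.20, edgeR adjusted p = 0.000886), and STAT6, the factor of interleukin-4, fell by 0.64 ± 0.15 on the log2 scale. JAK3, which binds the common gamma chain, was at 117 ± 17.4 CPM in JQ1 and 97.1 ± 6.38 in DMSO (log2 change 0.27 ± 0.11, edgeR adjusted p = 0.0935), and was called with the block (0.000691) and without JQ1 replicate 3 (0.0176). STAT5B changed by -0.15 ± 0.11 in log2 terms (edgeR adjusted p = 0.311; block fit 0.0299).

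Of 21 feedback inhibitors and phosphatases 18 were tested, 2 rose and 3 fell, with a median log2 change of 0.09 (8 and 4 with the block). Both shares, 11.1% higher and 16.7% lower, were below those of all tested genes, 15.9% and 20.6%. The block fit called 27.3% of all tested genes higher and 29.6% lower. PTPN6, the phosphatase SHP-1, fell from 63.9 ± 4.69 to 15.8 ± 3.14 CPM and PTPRC, which encodes CD45, from 309 ± 69.2 to 110 ± 39.0 CPM; the PTPRC call was lost with no filter on low counts (edgeR adjusted p = 0.0607). PIAS1 rose by 0.55 ± 0.09 and PTPN1 by 0.47 ± 0.12 on the log2 scale. SH2B3, named after its value was seen, was the third that fell (log2 change -0.27 ± 0.10, edgeR adjusted p = 0.04997), and its call was lost in 10 of 14 alternatives (edgeR adjusted p from 0.0543 to 0.174). CISH, a STAT5-induced inhibitor, was at 394 ± 75.8 CPM in JQ1 and 328 ± 36.2 in DMSO (edgeR adjusted p = 0.185), and was called with the block (0.00231) and without JQ1 replicate 3 (0.0389). SOCS2, another, had 286 ± 32.4 CPM in JQ1 and 286 ± 44.1 in DMSO.

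Of 20 genes that respond to interleukin-2, interleukin-7 or STAT5, 12 were tested, 6 fell and 2 rose, with a median log2 change of -0.25 (6 and 5 with the block). In shares, 50% were lower and 16.7% higher, where 20.6% and 15.9% of all tested genes were (29.6% and 27.3% with the block). LTA, lymphotoxin alpha, fell from 4.15 ± 0.633 to 0.771 ± 0.123 CPM. The survival genes moved apart: BCL2L1 and BCL2 fell by 0.60 ± 0.12 and 0.54 ± 0.13 on the log2 scale, and MCL1 rose from 202 ± 22.1 to 295 ± 4.17 CPM. The kinase gene PIM1, a common STAT5 target, had 227 ± 17.7 CPM in DMSO and 234 ± 13.9 in JQ1.

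Of 28 transcription factors known to act on these receptor genes 26 were tested, 7 fell and 2 rose, with a median log2 change of -0.16 (10 and 2 with the block). So 26.9% were lower and 7.69% higher, near the 20.6% lower and under the 15.9% higher of all tested genes. Among all tested genes the block fit called 29.6% lower and 27.3% higher. NFKB1 fell, with 23.9 ± 3.20 CPM in DMSO against 8.12 ± 2.17 in JQ1 (log2 change -1.57 ± 0.19, edgeR adjusted p = 0.000229), and IKZF1, the lymphoid factor Ikaros, from 285 ± 40.8 to 145 ± 24.2 CPM. NFATC2 and RUNX3 fell by 0.74 ± 0.13 and 0.49 ± 0.09 on the log2 scale.

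**Figure D5:**
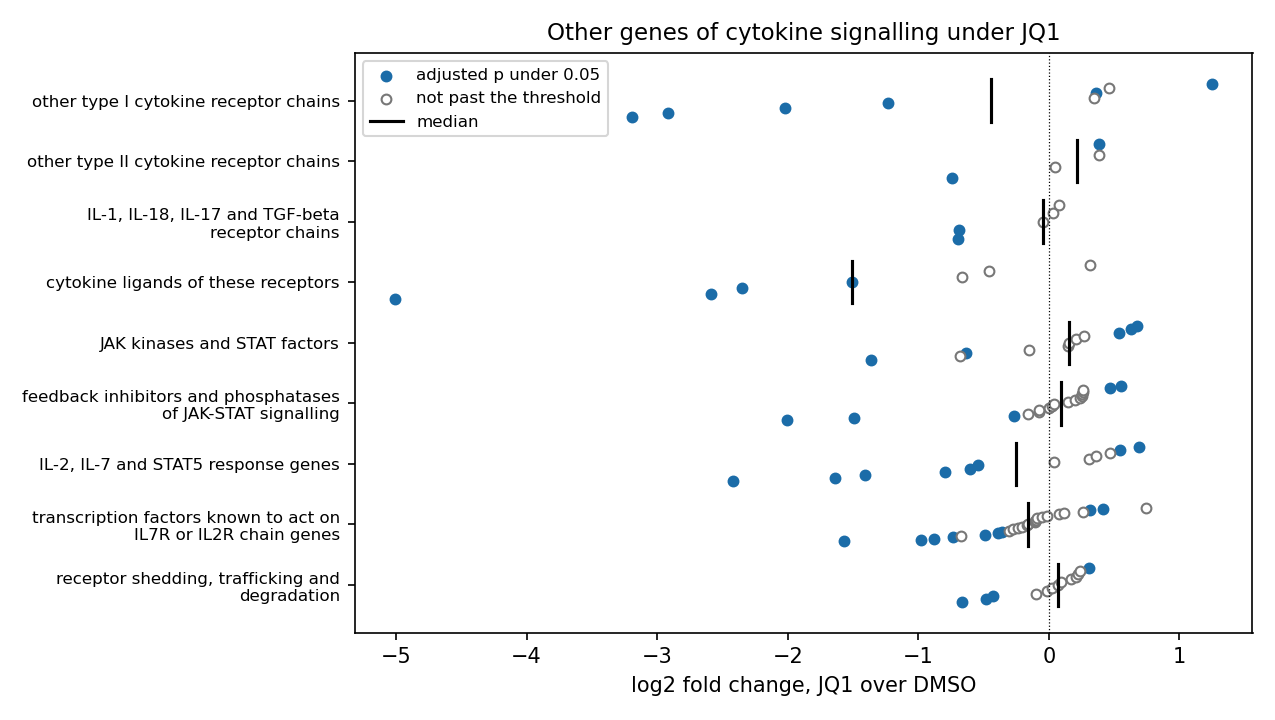
Log2 fold change of JQ1 over DMSO (horizontal axis) for each tested gene of 9 lists of cytokine signalling; filled points passed an adjusted p of 0.05, and the bar is the median of a list. The ligands have the lowest median, -1.51, and the JAK and STAT genes one of 0.16. The lowest point, LIF, rests on 3 reads in JQ1, so its fitted size depends on the prior count.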

How the data were processed

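Total RNA of 6 ALL-SIL libraries was sequenced. The authors deposited raw counts of reads per gene, without normalisation; the layout is that of STAR gene counts, which omit reads mapping to several places or genes. Per the submitters' processing notes the genome was GRCh38; which aligner and annotation were used is not given in the sources here. The reverse-strand column was used because it held 20.86 to 22.56 times the reads of the other; 58096 genes were listed, 57488 matched GENCODE 29 and 53747 also by version, and positions are printed only for the latter. The 4 read classes stayed out of totals (reads in no gene were 18.8% to 26.1%). The mitochondrial share was 14.0% to 16.9% in DMSO and 15.8% to 19.3% in JQ1. Replicates differed by more than sampling noise, so none was counted as a repeat of another (chi-square over degrees of freedom 15.5 to 32.8).

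Genes were filtered with filterByExpr (minimum count 10, total 15), leaving 13975, scaled by TMM (0.965 to 1.06) and tested with edgeR 4.0.16 in R 4.3.3 (glmQLFit and glmQLFTest, robust, group only), adjusted over all tested genes with a threshold of 0.05. SE is the log2 change over the square root of F. Ratios used counts plus 0.5; IL2RA over IL2RG, planned, was left out because both groups were at or under 3 reads per library. Same-numbered libraries deviated together across genes (r = 0.326, 0.433 and 0.371), so the replicate number can be taken as a pairing that the labels do not explain; the fit without it is the main one, and block counts stand beside the list counts they change. In simulated data with 100 genes changed 2-fold and 100 changed 1.5-fold among 13975, 69% and 36% were recovered, with 9 false calls. A far larger share, 36.6% of tested genes, was called in the real data. The adjusted threshold depends on that share, so the simulated rates do not give the power of this comparison.

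The members and lists were chosen with earlier results of these data known. Named genes were the members, MYC and HEXIM1, up to 4 tested genes per list with the smallest p, neighbouring protein-coding genes, and for IL7R, IL2RB and IL2RG the 3 protein-coding genes with the nearest profile. Other genes, among them STAT6, JAK3, STAT5B, CISH, SOCS2, PIM1, SH2B3, IL11RA, LEPR, CRLF3, IL15, ADAM10 and ADAM17, were chosen after their values were seen. CRLF2, CSF2RA, IL3RA and IL9R were left out because pseudoautosomal copies share reads. Alternatives were DESeq2 1.42.0, other scalings, filters and strand columns, the block, each library left out and, added after seeing the data, mitochondrial transcripts left out.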

Additional observations from a re-analysis of the deposited data

How the results depend on the processing

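Across 14 alternatives for each of the 8 tested chains, 97 values kept direction and side of the threshold, 7 lost the call, all of IL10RA, and 8 changed sign, of IL21R and IFNAR1, which had no call. IL10RA had a log2 change of 0.89 with library size as the only scaling and 0.97 with DESeq2, neither called, and 0.71 to 1.26 in fits without a library. IL21R ran from -0.17 to 0.11 without a library. IFNAR1 was 0.0061 with relative log expression factors, 0.0050 with at least 1 CPM in at least 3 libraries, 0.0004 without mitochondrial transcripts, 0.0064 with DESeq2 and -0.0779 to 0.0461 without a library; the cause was not tested. The log2 ratio of IL4R to IL2RG differed by -0.24 to 0.12 without a library. With the replicate number as a block, genes called higher went from 2227 to 3813 and listed pathway genes from 13 to 29, and genes called lower from 2883 to 4133; the block changed no call of a member. DESeq2, filters and scalings left IL7R, IL2RB, IL2RG, IL4R and IFNGR1 called. IL2RA had at most 3 reads in a library, and the size of the IL7R change rests on 27 reads in JQ1.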

Other observations

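Genes that shape how long receptors stay at the surface were called in shares near or under those of all tested genes. Of 15 genes of receptor shedding, trafficking and degradation 13 were tested, 3 fell and 1 rose, with a median log2 change of 0.07 (3 and 4 with the replicate block). That is 23.1% lower and 7.69% higher, where 20.6% and 15.9% of all tested genes were (29.6% and 27.3% with the block). SNX27, which recycles membrane receptors, fell from 32.8 ± 0.574 to 23.6 ± 1.70 CPM, STAM2, of the ubiquitin-sorting ESCRT-0 complex, from 17.9 ± 2.22 to 11.3 ± 1.55 CPM and the ubiquitin ligase MARCHF8 from 39.4 ± 2.41 to 29.3 ± 3.25 CPM. VPS26A of the retromer rose by 0.31 ± 0.10 on the log2 scale (edgeR adjusted p = 0.0307), a call lost in 6 of 14 alternatives (edgeR adjusted p from 0.0621 to 0.0913). The sheddase genes ADAM10 and ADAM17 had log2 changes of 0.02 ± 0.09 and 0.21 ± 0.08 (edgeR adjusted p = 0.862 and 0.0793, the latter 0.0061 with the block).

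By Euclidean distance of centred log2 CPM over the 6 libraries, the profiles nearest to that of IL7R were those of NFATC4, SLC14A1 and ENPEP (distances 1.02 to 1.14). The nearest to IL2RB were KLHL3, LST1 and CD6 (0.369 to 0.403), and to IL2RG STAMBPL1, TMEM101 and PTPRF (0.073 to 0.113). ENPEP, an aminopeptidase gene, had 124 ± 51.1 CPM in DMSO and 18.1 ± 8.89 in JQ1, and CD6, a T-cell surface receptor gene, had 58.0 ± 10.8 and 16.3 ± 7.19. The shorter distance of the IL2RG set goes with its smaller change and higher counts, so distances are not comparable between the 3 members.

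Neighbouring protein-coding genes of the chains that fell did not all fall. C1QTNF6, 5.11 kb from IL2RB, rose by 0.64 ± 0.20 on the log2 scale (edgeR adjusted p = 0.0265), a call lost in 4 of 14 alternatives (edgeR adjusted p from 0.0528 to 0.103). MED12, a Mediator kinase-module gene 6.45 kb from IL2RG, fell by 0.30 ± 0.10 (edgeR adjusted p = 0.0311), lost in 4 of 14 alternatives (0.0685 to 0.112), and CXorf65, 0.616 kb away on the other side, had a log2 change of -0.26 ± 0.24. NSMCE1, 44.9 kb from IL4R, fell from 29.6 ± 4.10 to 17.3 ± 4.53 CPM, and GTF3C1, 7.51 kb past IL21R, rose by 0.27 ± 0.08 (edgeR adjusted p = 0.0243), lost in 6 of 14 alternatives (0.0543 to 0.0795). SPEF2 and CAPSL, on either side of IL7R, and IL31RA and ANKRD55, on either side of IL6ST, had too few reads to be tested.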
